A study of Homo sapiens with 2 samples.

Results

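The mitosis and spindle genes are 45 named genes whose products bring a cell into mitosis, build the spindle, check the attachment of chromosomes and separate them. The list gives them by name, and all 45 were found among the 24991 gene names that the tables of both libraries hold. The study asked how PRSS35, a secreted protease of the trypsin type, acts in liver cancer. It sequenced the RNA of PLC cells, an established human liver cancer line, in 2 libraries. The EV library came from PLC cells that stably carry the empty lentiviral vector and are labelled WT in genotype. The PRSS35 library came from PLC cells infected in the same way with a vector that carries human PRSS35 and labelled as overexpressing it. Both lines were selected with puromycin, so the control cells carry vector and resistance too. The promoter that drives PRSS35 and whether a line is a pool or a clone are not given in the sources used here. Each condition has 1 library, so none of the differences below could be checked against replicates, and p-values are not given. The values are FPKM, fragments per kilobase of transcript scaled to the mapped fragments of the library, which allow for length when genes are compared. Comparisons between the libraries rest on the scaling, as given with the counts below.

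Entry into mitosis is driven by the kinase CDK1 bound to a B-type or A-type cyclin, which the phosphatases of the CDC25 family switch on and which PLK1 and the transcription factor FOXM1 reinforce. The Aurora kinases, the kinesin motors and the kinetochore, the protein plate that ties a chromosome to the spindle, then align the chromosomes. The spindle checkpoint holds back the anaphase-promoting complex until every kinetochore is attached, after which cyclin B and securin are destroyed and the sister chromatids part. Most of these transcripts build up late in the cell cycle, so their level in a bulk sample follows the share of dividing cells as well as the RNA per cell. In these bulk libraries the share of dividing cells and the RNA per dividing cell cannot be told apart. Many of the genes are widely used as markers of proliferation, in liver cancer among other tumours.

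The PRSS35 transcript was at 0.643 FPKM (0.445 to 0.841) in the EV library and at 1836 FPKM (1759 to 1912) in the PRSS35 library, as their labels have it. The range in brackets here and below is the interval deposited with each FPKM, which covers the error within 1 library and no variation between cultures. Of 16 hepatocyte markers 15 passed a mean of 1 FPKM, among them AFP at 18.9 and 17.7 FPKM and KRT8 at 2457 and 2344 FPKM in the EV and PRSS35 libraries. ALB, the main protein of plasma, was at only 4.05 and 5.21 FPKM. Of 9 leukocyte markers 6 were listed at 0 in both libraries, PTPRC among them, and only LYZ passed the filter at 94.0 and 103.7 FPKM. Of 6 fibroblast markers 3 were listed at 0 in both and the list summed to 1.75 and 2.03 FPKM, and no endothelial marker passed. The FPKM worth of 1 fragment, read from low values of genes with the same model, had a median ratio of 0.999 between the libraries over 191 genes, so the deposited values stand on nearly the same depth.

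Nearly all of the mitotic genes were detected in both libraries. With a filter of a mean of 1 FPKM over both libraries, 41 of the 45 genes passed, and 10133 of all 24991 names did. The median over the 41 was 16.3 FPKM in EV and 16.4 FPKM in PRSS35, against 9.40 and 10.1 FPKM over all expressed genes. The levels ran from 1.14 FPKM for CENPF to 453 FPKM for UBE2C in EV, and 6 of the 45 stood at 100 FPKM or more in both libraries while 12 stood under 5. The summed FPKM of the 45 was 2324 in EV and 2273 in PRSS35, a ratio of 0.978. The 5 highest genes held 64.0% of that sum in EV and 60.9% in PRSS35. The order of the genes was nearly the same in both libraries (Spearman's rho 0.996 across the 45 genes, which share libraries and gene models and are not independent replicates).

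**Figure D1:**
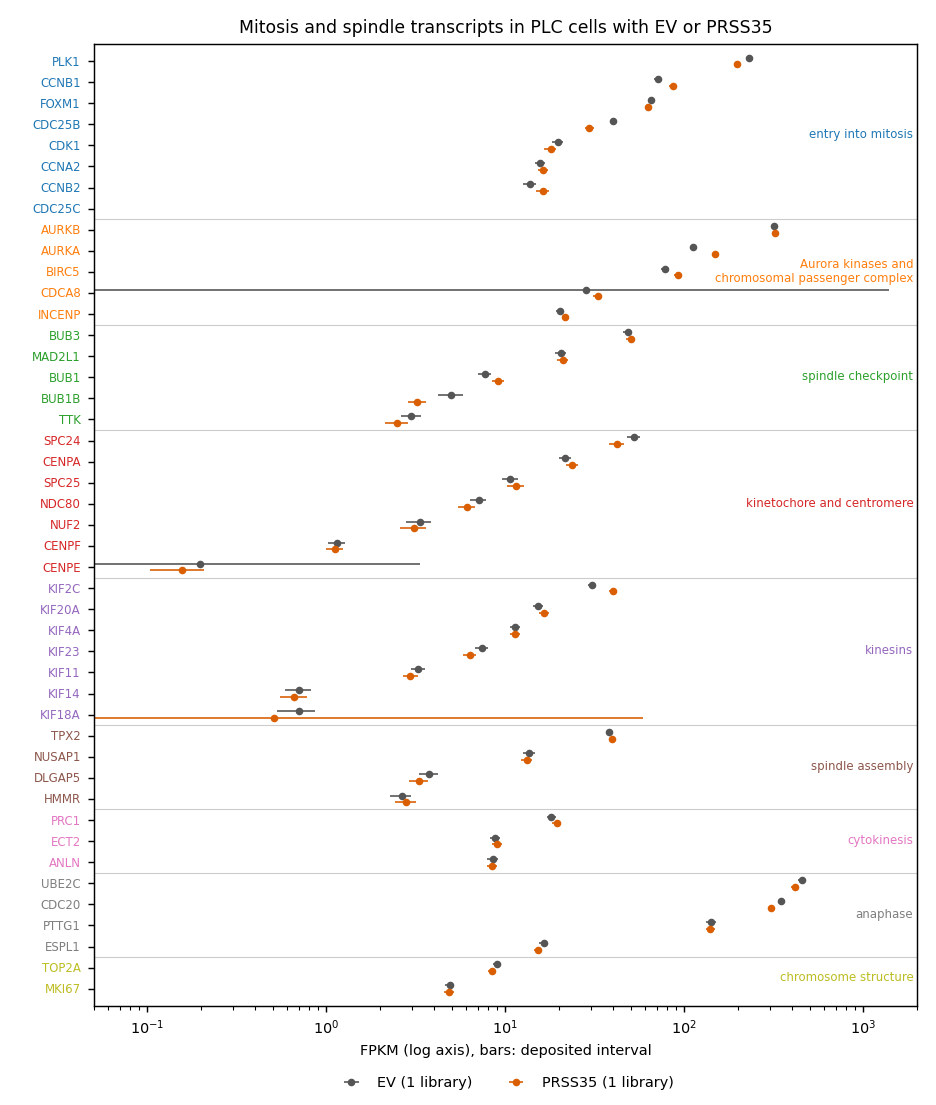
FPKM on a log axis for the 45 mitosis and spindle genes, grouped by role, in the EV library (grey) and the PRSS35 library (orange), with bars for the deposited interval. UBE2C is highest at 453 and 413 FPKM, CENPE is lowest of the genes above 0, and CDC25C has no point since it is listed at 0 in both libraries.

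The 4 genes under the filter were CDC25C, CENPE, KIF14 and KIF18A. CDC25C, a phosphatase that activates CDK1, was listed at 0 FPKM in both libraries on a locus assembled from the reads, and a listed 0 may be a failed estimate. CENPE, a kinetochore motor, was at 0.195 FPKM (0 to 3.33) in EV and 0.155 FPKM (0.103 to 0.207) in PRSS35. KIF14, a motor of the last step of division, was at 0.704 FPKM (0.584 to 0.825) and 0.662 FPKM (0.547 to 0.776). KIF18A, which limits the growth of spindle microtubules, was at 0.698 FPKM (0.529 to 0.868) and 0.508 FPKM (0 to 58.4). The very wide intervals of CENPE in EV and KIF18A in PRSS35, like that of CDCA8 in EV, reach more than 2 times the FPKM, so those values are hardly fixed by the reads.

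None of the 41 genes differed between the libraries by 1.5-fold in either direction, and none by 2-fold. Among all 10133 expressed genes 4.32% were at least 1.5-fold higher in PRSS35 and 3.55% at least 1.5-fold lower, and 1.89% and 1.84% passed 2-fold. These folds compare FPKM + 1 in PRSS35 with that in EV on the log2 scale, and the added 1 makes the changes of low genes look smaller. The median change of the 41 was -0.01, with 20 genes higher and 21 lower, an interquartile range of 0.22 and extremes of -0.50 for BUB1B and 0.39 for AURKA. Over all expressed genes the median was 0.06, the interquartile range was 0.32, and 60.7% were higher. The whole list of 41 lay within 1.5-fold, as did 92.1% of all expressed genes.

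By a finer rule, that the deposited intervals of both libraries do not overlap, 6 of the 41 (14.6%) were higher in PRSS35 and 5 (12.2%) were lower. The same rule called 24.7% of all expressed genes higher and 14.3% lower. The split of 6 higher and 5 lower depends on the scaling, and so does its place beside the other genes. It became 4 and 10 when the changes were centred on the median of all expressed genes, a setting that called 18.0% of expressed genes higher and 19.2% lower. With upper quartile scaling it was also 4 and 10, beside 17.8% and 19.5% of expressed genes. CCNB2 and BUB1 are the genes that lose the upward call on these scalings. It was 39 and 0 when each library was divided by its summed FPKM, beside 87.7% and 1.81%, a step that lifts the median over expressed genes from 0.06 to 0.68. The share of mitotic genes called lower was thus under that of expressed genes for the deposited values and over it with centring or upper quartile scaling. Each direction below is for the deposited FPKM, and on the summed scaling all 41 genes are higher in PRSS35.

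**Figure D2:**
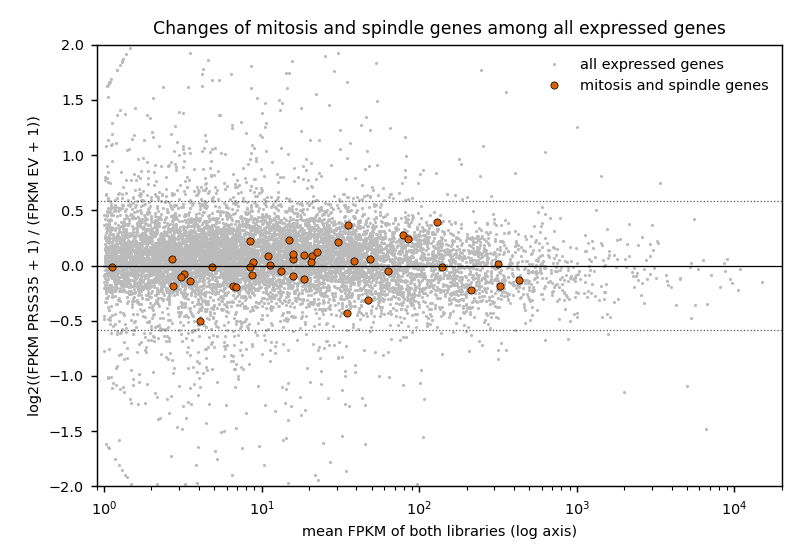
Log2 change, (FPKM + 1) in PRSS35 over EV, against the mean FPKM of both libraries on a log axis, for 10133 expressed genes (grey; changes beyond 2 in either direction are off the axis) and the 41 mitosis and spindle genes that passed the filter (orange). The dotted lines mark 1.5-fold, and all 41 points lie between them, from -0.50 to 0.39.

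The promoters of these genes share sequence features that the choice of genes did not use. Some short elements are known to time mitotic genes, the CHR element (TTTGAA), which the DREAM and MuvB complexes bind, and the CCAAT box (CCAAT), which the factor NF-Y binds. In RefSeq windows from 250 bases before to 50 bases after the gene start (assembly GRCh38.p14), read on both strands, 38 of the 45 genes had a window. The other 7 were AURKA, BIRC5, BUB3, FOXM1, TPX2, TTK and UBE2C. The 8 stretches below are the 150 bases before the start of 4 genes with intervals apart upwards (CCNB1, CCNB2, BUB1, KIF2C), 3 apart downwards (PLK1, CDC20, SPC24) and the proliferation marker MKI67. Capitals mark every TTTGAA and CCAAT and their reverse complements TTCAAA and ATTGG, coordinates are those of GRCh38.p14, and each runs 5′ to 3′ on the strand of its gene. In MKI67 a TTTGAA and an ATTGG overlap in 1 run of capitals.
CCNB1, chr5:69167000-69167149, plus strand: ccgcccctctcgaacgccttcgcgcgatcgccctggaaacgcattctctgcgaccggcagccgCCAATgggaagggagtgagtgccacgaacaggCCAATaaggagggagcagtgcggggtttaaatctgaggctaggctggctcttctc
CCNB2, chr15:59104996-59105145, plus strand: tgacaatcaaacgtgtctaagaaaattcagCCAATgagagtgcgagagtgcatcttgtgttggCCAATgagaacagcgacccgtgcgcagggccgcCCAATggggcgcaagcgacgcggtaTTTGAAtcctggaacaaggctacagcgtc
BUB1, chr2:110678064-110678213, minus strand: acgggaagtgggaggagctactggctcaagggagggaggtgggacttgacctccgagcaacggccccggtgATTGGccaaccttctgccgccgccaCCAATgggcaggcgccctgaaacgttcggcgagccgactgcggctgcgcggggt
KIF2C, chr1:44739687-44739836, plus strand: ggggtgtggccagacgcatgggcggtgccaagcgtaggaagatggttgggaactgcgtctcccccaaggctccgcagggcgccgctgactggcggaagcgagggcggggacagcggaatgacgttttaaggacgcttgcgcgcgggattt
PLK1, chr16:23678739-23678888, plus strand: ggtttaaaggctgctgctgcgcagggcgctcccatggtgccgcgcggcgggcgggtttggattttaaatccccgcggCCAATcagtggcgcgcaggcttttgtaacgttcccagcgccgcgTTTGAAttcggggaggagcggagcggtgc
CDC20, chr1:43358831-43358980, plus strand: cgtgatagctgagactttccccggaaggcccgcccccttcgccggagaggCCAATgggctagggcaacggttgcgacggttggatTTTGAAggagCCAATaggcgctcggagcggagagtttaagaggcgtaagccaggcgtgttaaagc
SPC24, chr19:11155783-11155932, minus strand: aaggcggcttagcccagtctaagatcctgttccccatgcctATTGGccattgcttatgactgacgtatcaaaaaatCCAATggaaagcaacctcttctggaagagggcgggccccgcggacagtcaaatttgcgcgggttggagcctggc
MKI67, chr10:128126424-128126573, minus strand: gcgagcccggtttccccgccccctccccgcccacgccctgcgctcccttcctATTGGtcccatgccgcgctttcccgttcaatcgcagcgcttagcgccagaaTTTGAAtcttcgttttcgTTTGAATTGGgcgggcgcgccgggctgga
CCNB1 and BUB1 hold a pair of CCAAT boxes and no CHR element, while CCNB2, PLK1 and CDC20 hold both kinds. In CCNB2 and PLK1 the CHR element begins at the same distance, 29 bases before the start. MKI67 holds 2 CHR elements, at -47 and -29, KIF2C holds neither element anywhere in its window, and SPC24 holds 3 CCAAT boxes in its window and no CHR element.

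A CHR element was found for 28 of the 38 genes (73.7%, Wilson 95% interval 58.0% to 85.0%), against 18.2% of the 27305 genes with a window and 12.5% of the 7306 expressed genes with one. A CCAAT box was found for 32 of the 38 (84.2%), against 39.7% of all genes and 43.4% of expressed genes. Both elements together stood in 24 of the 38 (63.2%) against 7.26% and 5.15%, and 2 or more CCAAT boxes in 52.6% against 12.9% and 16.1%. An E2F site (TTTGGCGC or TTTCCCGC), an element of genes of the earlier G1 to S transition, was found for 2 of the 38 (5.26%, Wilson 95% interval 1.46% to 17.3%), against 2.75% of all genes and 4.61% of expressed genes. The intervals cover counting error only, and a match is a run of letters, not a bound site.

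The CHR elements of the mitotic genes gathered near the gene start. The 43 CHR elements of the mitotic windows had a median position of -28 and 30 of them (69.8%) began at -50 or later, whereas over all windows the median was -125 and 27.2% began there. The 38 genes have 48 windows, and an element in overlapping windows of 1 gene is counted in each. Of the 43, 35 read TTTGAA on the strand of the gene and 8 on the other. The 75 CCAAT boxes lay further upstream than the CHR elements, with a median of -79 and 17.3% at -50 or later, against a median of -96 and 23.1% over all windows. In CCNB2, PLK1 and ESPL1 every CCAAT box lies before the CHR element, but this order does not hold for all the genes. CDC20 has a CCAAT box at -55, after its CHR elements at -178 and -65. CDCA8 has one at -18, after its CHR element at -23, and MKI67 has one at -24, after its CHR elements at -47 and -29. Several other genes, such as CDK1 and ECT2, also have a CCAAT box after a CHR element.

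The changes of genes with and without a CHR element overlapped. The 25 with one that passed the filter had a median log2 change of -0.01 (from -0.50 to 0.23), with 10 higher, and 1 apart upwards and 3 apart downwards. The 9 without one had a median of 0.06 (from -0.43 to 0.36), with 6 higher, and 3 apart upwards and 2 apart downwards. Of all expressed genes 60.7% were higher, 24.7% were apart upwards and 14.3% apart downwards. Their levels in EV had a median of 10.7 FPKM for the 25 and 40.1 FPKM for the 9. The 10 genes without the element include AURKB, PTTG1 and CCNB1, which are among the more abundant, and CENPE, the least abundant above 0. This split rests on the letters TTTGAA alone. With TTTAAA counted too, 34 of the 38 genes hold an element, PTTG1, CCNB1 and CENPE among them, and the changes were not compared on that wider rule.

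Among the genes of mitotic entry the cyclins lay above 0 on the deposited values and CDC25B, PLK1 and FOXM1 below it, all by small amounts. CCNB1, the main B-type cyclin (chr5:68462837-68474070, hg19), was at 71.4 FPKM (67.7 to 75.05) in EV and 86.5 FPKM (82.1 to 90.8) in PRSS35. The ratio was 1.21 (1.13 to 1.30), and the log2 change was 0.27. The range of a ratio joins both deposited intervals and so covers error within the libraries only. CCNB2 (chr15:59397284-59417244), a B-type cyclin found mainly at the Golgi, was at 13.6 FPKM (12.5 to 14.8) and 16.2 FPKM (14.9 to 17.4), a log2 change of 0.23. Both B-type cyclins were thus higher in PRSS35 with intervals apart, while their kinase CDK1 was not, at 19.6 FPKM (18.1 to 21.1) and 17.9 FPKM (16.5 to 19.3) with overlapping intervals. With centring or upper quartile scaling the intervals of CCNB2 overlap, whereas those of CCNB1 stay apart. The A-type cyclin CCNA2, which acts from S phase on, was at 15.6 FPKM (14.5 to 16.6) and 16.2 FPKM (15.1 to 17.4), intervals that overlap. Its log2 change was 0.06, and it fell to -0.004 with centring and to -0.003 with upper quartile scaling.

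CDC25B, the phosphatase that first activates CDK1 at the centrosome, had the lowest log2 change of any gene with a locus of its own. It was at 40.1 FPKM (38.3 to 41.9) in EV and 29.5 FPKM (27.7 to 31.2) in PRSS35 (chr20:3767419-3786768), a ratio of 0.735 (0.683 to 0.792) and a log2 change of -0.43. PLK1, the Polo-like kinase that drives centrosome maturation and entry (chr16:23690143-23701688), was the most abundant gene of this role at 230.3 FPKM (220.0 to 241) and 197 FPKM (188 to 206), a ratio of 0.857 (0.804 to 0.913). Both were lower in PRSS35 with intervals apart. FOXM1, the factor that activates many of these promoters, was at 65.0 FPKM (62.5 to 67.6) and 62.6 FPKM (60.2 to 65.0), and those intervals overlap. Of the 7 measured genes of mitotic entry, 3 were higher and 4 lower, with a median log2 change of -0.05.

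The Aurora kinases and the chromosomal passenger complex, which corrects faulty attachments and later guides cleavage, were the role in which every gene past the filter had the higher FPKM in PRSS35, 5 of 5, CDCA8 with an EV value that the reads hardly fix. Of all expressed genes 60.7% were higher on these values. With the changes centred on the median of all expressed genes AURKB falls to -0.05 and the other 4 stay above 0. AURKA, which builds the spindle poles and does not belong to the complex, had the highest log2 change of all 41 genes. It was at 112 FPKM (109 to 116) in EV and 147 FPKM (143 to 152) in PRSS35 (chr20:54944445-54967351), a ratio of 1.32 (1.26 to 1.37) and a log2 change of 0.39. BIRC5, or survivin, which carries the complex to the centromere (chr17:76210277-76221716), was at 77.5 FPKM (74.1 to 81.0) and 91.99 FPKM (88.0 to 95.97), a ratio of 1.19 (1.12 to 1.26). Both had intervals apart, and no other gene of the role did. AURKB, the kinase of the complex, was far more abundant but nearly level, at 317 FPKM (305 to 328) and 320.2 FPKM (309 to 332). INCENP, its scaffold and the lowest of the role by mean FPKM, was at 20.3 FPKM (19.3 to 21.3) and 21.6 FPKM (20.6 to 22.6). CDCA8, or borealin, was at 28.1 FPKM in EV with an interval from 0 to 1392 and at 32.7 FPKM (30.9 to 34.5) in PRSS35, so its ratio is not fixed by the reads. In PRSS35 the transcripts of the complex ran from INCENP at the bottom to AURKB at the top, an order that cannot be given for EV with the interval of CDCA8.

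The spindle checkpoint genes split. BUB1, the kinase that marks unattached kinetochores (chr2:111395275-111435684), was at 7.68 FPKM (7.05 to 8.31) in EV and 9.10 FPKM (8.43 to 9.76) in PRSS35, a ratio of 1.18 (1.06 to 1.32) with intervals apart. Its intervals overlap with centring or upper quartile scaling. BUB1B, which encodes BubR1, the inhibitor of the anaphase-promoting complex, moved the other way, from 4.98 FPKM (4.17 to 5.78) to 3.21 FPKM (2.84 to 3.59). Its log2 change of -0.50 was the lowest of the 41 and its ratio of 0.646 (0.529 to 0.788) alone lies past 1.5-fold without the added 1 FPKM. That value belongs to 1 locus that the tables give as BUB1B and PAK6 joined (chr15:40453210-40569688), so reads of the neighbour PAK6 cannot be told apart from those of BUB1B. BUB3, the most abundant of the role, was at 48.1 FPKM (45.3 to 51.001) and 50.1 FPKM (47.1 to 53.0). MAD2L1, which binds the activator CDC20, was at 20.4 FPKM (18.9 to 21.9) and 20.9 FPKM (19.3 to 22.4). TTK, the kinase that starts the checkpoint and the lowest of the role, was at 2.98 FPKM (2.59 to 3.37) and 2.49 FPKM (2.13 to 2.85). The intervals of these last genes overlap.

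Kinetochore genes were mostly level or slightly lower. The NDC80 complex, which grips the microtubule, has NDC80, NUF2, SPC24 and SPC25 as its subunits. SPC24 (chr19:11257831-11266484) was at 52.3 FPKM (48.1 to 56.5) in EV and 41.8 FPKM (38.0 to 45.7) in PRSS35, a ratio of 0.7997 (0.707 to 0.904) and a log2 change of -0.32 with intervals apart. Its partner SPC25 was at 10.7 FPKM (9.54 to 11.8) and 11.4 FPKM (10.1 to 12.7), NDC80 at 7.08 FPKM (6.32 to 7.83) and 6.10 FPKM (5.45 to 6.74), and NUF2 at 3.32 FPKM (2.80 to 3.84) and 3.08 FPKM (2.58 to 3.58), all with overlapping intervals. SPC24 thus stood several times above the other 3 subunits and alone of the 4 had intervals apart. Its value is uncertain in another way, since its locus was assembled from reads in the PRSS35 library only. CENPA, the histone that marks centromeres, was at 21.6 FPKM (19.8 to 23.3) and 23.6 FPKM (21.8 to 25.4). CENPF, a large protein of the outer kinetochore, was at 1.14 FPKM (1.02 to 1.26) and 1.12 FPKM (1.00 to 1.24), the lowest level of the 41 genes past the filter.

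Of the 5 kinesins past the filter, KIF2C was the highest and the only one with intervals apart. KIF2C, or MCAK, which strips microtubule ends to undo faulty attachments (chr1:45205490-45233438), was at 30.6 FPKM (29.1 to 32.2) in EV and 39.7 FPKM (37.8 to 41.5) in PRSS35, a ratio of 1.30 (1.21 to 1.39) and a log2 change of 0.36. KIF20A, a motor of cytokinesis, was at 15.2 FPKM (14.2 to 16.2) and 16.4 FPKM (15.4 to 17.5). KIF4A, which organises the anaphase midzone, was at 11.3 FPKM (10.6 to 12.01) and 11.3 FPKM (10.6 to 12.1), the most even of all. KIF23, a subunit of centralspindlin, was at 7.39 FPKM (6.79 to 7.99) and 6.32 FPKM (5.77 to 6.87), intervals that just overlap although the range of its ratio, 0.854 (0.759 to 0.962), lies under 1. KIF11, or Eg5, which pushes the spindle poles apart, was at 3.25 FPKM (2.96 to 3.55) and 2.95 FPKM (2.67 to 3.23).

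The spindle assembly genes and those of cytokinesis held no gene with intervals apart. TPX2, which activates AURKA on the spindle, was at 38.1 FPKM (36.4 to 39.8) in EV and 39.3 FPKM (38.1 to 40.6) in PRSS35, intervals that overlap, unlike those of its kinase. HMMR, which focuses spindle poles and was the lowest of its role, was at 2.63 FPKM (2.27 to 2.98) and 2.78 FPKM (2.41 to 3.15). NUSAP1 was at 13.6 FPKM (12.6 to 14.6) and 13.1 FPKM (12.2 to 14.05) and DLGAP5 at 3.74 FPKM (3.29 to 4.20) and 3.30 FPKM (2.87 to 3.72), both proteins that stabilise spindle microtubules. In cytokinesis, PRC1, which bundles the midzone, was at 18.1 FPKM (17.1 to 19.1) and 19.3 FPKM (18.3 to 20.4). ECT2, which switches on RhoA for the cleavage furrow, was at 8.79 FPKM (8.21 to 9.36) and 8.99 FPKM (8.38 to 9.60), and ANLN, a scaffold of the furrow, was at 8.48 FPKM (7.92 to 9.04) and 8.40 FPKM (7.85 to 8.95). The 7 genes lay between -0.14 and 0.09 in log2 change.

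The genes of anaphase were the most abundant role, and all 4 were lower in PRSS35, with a median log2 change of -0.11, though all 4 were higher when each library was divided by its summed FPKM. On the deposited values 3983 of all 10133 expressed genes were lower. UBE2C, the ubiquitin-conjugating enzyme of the anaphase-promoting complex and the highest gene of the list, was at 453 FPKM (431 to 474) in EV and 413 FPKM (393 to 433) in PRSS35, intervals that overlap by little. CDC20, the activator that the checkpoint holds back (chr1:43824626-43828873), was at 347 FPKM (331 to 362) and 306 FPKM (292 to 319), a ratio of 0.882 (0.828 to 0.939) with intervals apart. PTTG1, or securin, was at 141 FPKM (133 to 149.6) and 139.7 FPKM (131 to 148), with its near-identical copies PTTG2 and PTTG3P listed at 0 in both libraries. ESPL1, the separase that cuts cohesin, was the lowest of the role at 16.3 FPKM (15.5 to 17.2) and 15.2 FPKM (14.4 to 16.1). Of the chromosome structure genes, TOP2A, which untangles DNA, was at 9.01 FPKM (8.56 to 9.47) and 8.42 FPKM (7.97 to 8.86), and MKI67, the Ki-67 antigen that coats mitotic chromosomes, at 4.90 FPKM (4.60 to 5.19) and 4.84 FPKM (4.54 to 5.14). Both are widely used as proliferation markers, and both had overlapping intervals.

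**Figure D3:**
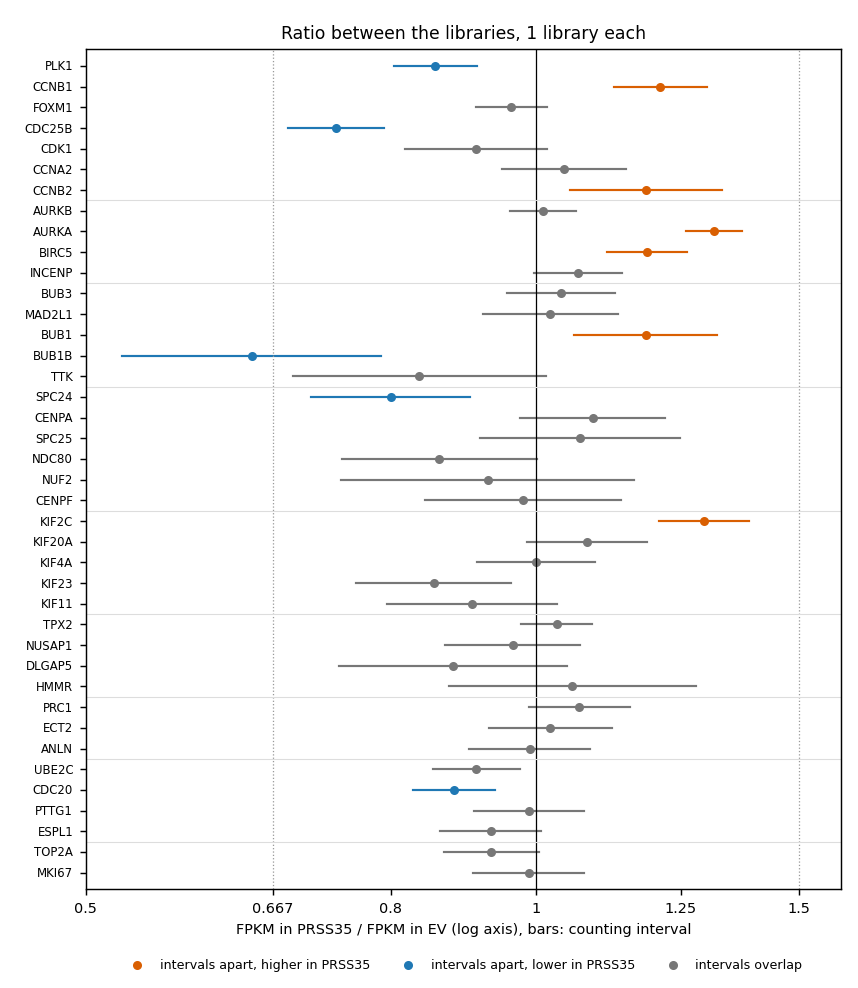
Ratio of FPKM, PRSS35 over EV, on a log axis for 40 mitosis and spindle genes that passed the filter (CDCA8 is left out for its wide interval), with bars for the range that joins both deposited intervals. Orange marks the 6 genes apart upwards, led by AURKA and KIF2C, and blue the 5 apart downwards, led by BUB1B and CDC25B. The dotted lines mark 1.5-fold in either direction.

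The precision behind these values varied between genes and did not follow the level alone. For 40 genes the width of the deposited intervals, read as counting error alone, would correspond to 153 to 4235 fragments in EV (median 946). In PRSS35 the range was 152 to 4568 (median 915). The value was highest for AURKA in both libraries and lowest for BUB1B in EV and NUF2 in PRSS35. These values are not counts of fragments. TPX2, at 38.1 and 39.3 FPKM, gives 1904 in EV on an assembled locus and 4161 in PRSS35 on the annotated one. MKI67, at 4.90 FPKM in EV, gives 1127, and SPC24, at 52.3 FPKM in EV, gives 613. A locus assembled anew from the reads, in place of the annotated gene, stood for 28 of the 45 genes in EV and 26 in PRSS35, in both libraries for 22 and in neither for 13. In 10 genes the libraries differed in this, SPC24 among them. Of the 13 genes with the annotated model in both libraries 2 were apart upwards, BIRC5 and CCNB2, and none downwards. Among the 2390 expressed genes with the annotated model in both libraries 560 were apart upwards and 163 downwards. All 5 lower genes, and 4 of the 6 higher ones (CCNB1, AURKA, BUB1 and KIF2C), rest on at least 1 assembled locus. All 45 loci overlap the gene of that name in the hg19 annotation, on 18 chromosomes, and the locus bounds were the same in both libraries for 42. The exons of 14 genes are overlapped by a gene on the opposite strand, PLK1 and KIF2C among them, and reads without strand cannot separate such pairs. The part of these overlaps in the changes was not tested.

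The level of the mitotic genes followed the base composition and the length of their transcripts. Across the 45 genes FPKM rose with the GC content of the annotated transcript (rho 0.67 in both libraries) and fell with its length (rho -0.46 in EV and -0.48 in PRSS35). The 8940 expressed genes with a matched transcript gave 0.37 and 0.38 for GC and -0.38 in both libraries for length. The 23 genes at or above the median GC of the list had a median of 30.6 FPKM in EV and 32.7 in PRSS35, and the 22 below it 7.54 and 7.36. The list is poor in GC, with a median of 43.1% against 50.1% for expressed genes. CENPE, the lowest above 0, has 35.1% GC over 8541 bases, whereas UBE2C, the highest, spans 777 bases. CDK1 at 35.4% GC is one of the genes that stand above their neighbours in GC, and MKI67, with 12716 bases, is the longest. Against the change between the libraries rho was 0.09 for GC and -0.10 for length across the 45 genes. It was 0.04 and -0.09 across the 41 past the filter, and -0.11 and 0.06 across the 8940 expressed genes. These correlations are across genes of the same libraries and are a description.

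**Figure D4:**
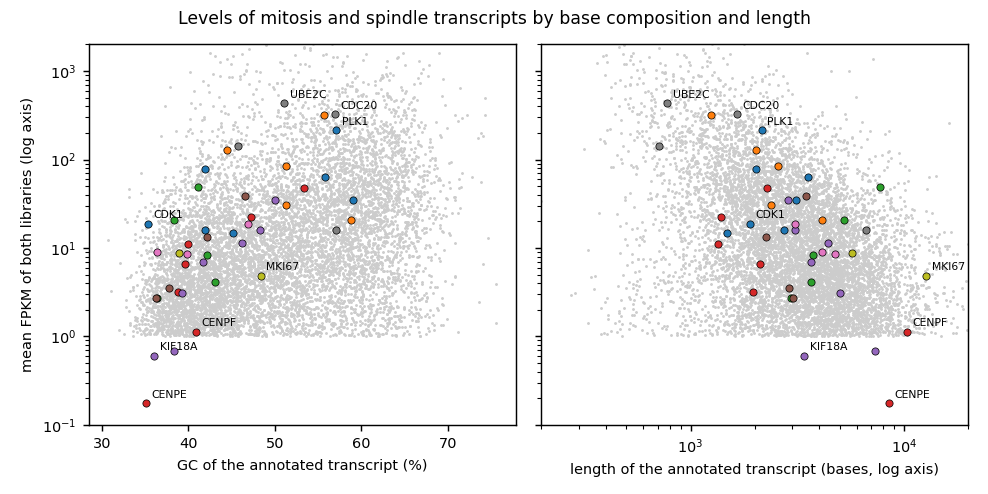
Mean FPKM of both libraries (log axis) against GC content (%) and length (bases, log axis) of the annotated transcript, for expressed genes (grey) and the mitosis and spindle genes above 0 FPKM (coloured by role as in the plot of FPKM by role). The mitotic genes climb with GC and fall with length, from CENPE at the bottom to UBE2C at the top.

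Of 170 other cell cycle genes in 9 lists, 142 passed the filter and were not joined to a neighbour in 1 library only, with a median log2 change of 0.03 and 84 higher. At 1.5-fold 3 were higher and 2 lower, and 32 had intervals apart upwards and 15 downwards. Of all expressed genes 60.7% were higher, 4.32% by 1.5-fold, and 3.55% were lower by 1.5-fold. The shares with intervals apart were 24.7% upwards and 14.3% downwards. Other spindle, centrosome and cytokinesis genes (25) had a median of 0.01, other kinetochore and checkpoint genes (23) -0.01, cohesin (8) 0.06, condensin (8) 0.16 and subunits of the anaphase-promoting complex (14) 0.04. Genes of DNA replication (31) had a median of 0.03, G1 and S phase cyclins and kinases (7) 0.02, brakes on the cell cycle (9) 0.02 and regulators of mitotic transcription (17) 0.05.

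On the scale of FPKM + 1 single genes of these lists moved further than any of the 41. Without the added 1 FPKM the ratio of BUB1B among the 41 was 0.646, about as far from 1 as that of CENPO below. CKS1B, the small subunit that binds CDK1, was at 177 FPKM in EV and 311 in PRSS35, a log2 change of 0.81. NCAPH, a subunit of condensin I, was at 11.6 and 20.4 FPKM, a change of 0.77 on a locus assembled in the PRSS35 library only. CENPO, a protein of the inner kinetochore, was at 19.3 and 12.5 FPKM, a change of -0.60. CDK6, a G1 kinase, was at 1.22 and 4.80 FPKM, a change of 1.39. FEN1, the flap nuclease of replication, was at 49.5 FPKM in EV and listed at 0 in PRSS35 on an assembled locus, which may be a failed estimate. CKS1B, NCAPH and CDK6 were thus the 3 higher genes and CENPO and FEN1 the 2 lower.

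In the lists with no gene past 1.5-fold on FPKM + 1 the largest changes were smaller. They were 0.49 in log2 for cohesin and 0.57 for the brakes on the cell cycle. Without the added 1 FPKM the values of SGO1 and CDKN2C below lie past 1.5-fold. ANAPC5, a subunit of the anaphase-promoting complex, was at 41.3 and 61.4 FPKM in EV and PRSS35. CDKN2C, an inhibitor of CDK4 and CDK6, was at 20.2 and 30.4 FPKM, and SGO1, the protector of cohesin, at 1.17 and 2.06 FPKM. E2F1, which activates genes of S phase, went the other way, at 134 and 91.6 FPKM. MYBL2, which with FOXM1 acts on CHR promoters, was at 568 and 485 FPKM. The 15 hepatocyte markers past the filter had a median log2 change of 0.03, with 8 higher and 7 lower, and 7 apart upwards and 3 downwards. Over all expressed genes 60.7% were higher, 24.7% were apart upwards and 14.3% downwards. Of the 15 markers TF and SERPINA1 passed 1.5-fold, at 224 and 348 FPKM and at 2528 and 4239 FPKM. On FPKM + 1 these were larger changes than that of any of the 41 mitotic genes.

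The CHR element was spread unevenly over those lists too. It was found for 17 of 24 other spindle, centrosome and cytokinesis genes with a window (70.8%), beside 73.7% of the mitotic genes, and for 6 of 7 condensin genes. It was found for 9 of 24 other kinetochore and checkpoint genes (37.5%), 5 of 17 genes of the anaphase-promoting complex and 2 of 12 cohesin genes. Only 1 of 28 DNA replication genes (3.57%) and none of 7 brakes on the cell cycle held it, while CCAAT boxes stood in 19 of those 28 replication genes (67.9%).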

How the data were processed

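Total RNA of PLC cells with EV or PRSS35 was made into libraries with the NEBNext Ultra RNA kit and sequenced on a HiSeq2500, with 1 library for EV and 1 for PRSS35. For alignment to hg19 the authors used TopHat2 v2.1.0, and they estimated FPKM per gene with Cufflinks (the submitters' processing notes name Cuffdiff v2.2.1). The deposited FPKM values come with a lower and an upper bound. The annotation release and the counting options are not given in the sources used here, and neither is the use of strand.

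The FPKM of rows with the same gene name were summed, and names were also found inside joined names. Changes are log2 of (FPKM + 1) in PRSS35 over EV, over genes whose mean FPKM reached 1, and calls are 1.5-fold, 2-fold or deposited intervals that do not overlap. Sizes were computed with no test, since each condition has 1 library. The range of a ratio takes each interval as 2 standard errors to either side. FPKM cannot be turned back into counts here, so depth is known only relative between libraries. The scripts (Python 3.11.15, pandas 2.3.3, scipy 1.17.1) were tested on simulated data. Transcript length, GC and overlaps are from GENCODE release 44 on GRCh37 (hg19), and promoter windows from RefSeq on GRCh38.p14, whose coordinates were not mixed with those of hg19. Other pseudocounts, scalings, filters and locus choices were tried.

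The genes and lists were chosen with earlier results of these data known. The rule named in full the genes with intervals apart, the highest and lowest of each role and, of each other list, the genes past 1.5-fold or else the one with the largest change. MYBL2, AFP, KRT8, ALB and LYZ were named after their values were seen. CDKN2A, CDKN2B and other genes joined to a neighbour in 1 library only were left out of the other lists.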

Additional observations from a re-analysis of the deposited data

How the results depend on the processing

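The direction of the mitotic genes depends on the scaling. With each library divided by its summed FPKM the 41 genes had a median log2 change of 0.65, beside 0.68 for all expressed genes, all 41 were higher, 23 by 1.5-fold and 2 by 2-fold, and 39 had intervals apart upwards and 0 downwards. Of all expressed genes 96.2% were then higher, 63.9% by 1.5-fold and 10.5% by 2-fold, and 87.7% were apart upwards and 1.81% downwards. On that scaling CDC25B was at 0.26, PLK1 at 0.49, BUB1B at 0.064, SPC24 at 0.38 and CDC20 at 0.53, all reversed. The summed FPKM of EV is larger by 0.71 on the log2 scale, which shifts every gene. Centred on the median change of expressed genes, 12 of the 41 genes were higher, beside 49.995% of all expressed genes. On that setting 10 of the 41 had intervals apart downwards, beside 19.2% of expressed genes. With upper quartile scaling 13 of the 41 were higher, beside 51.2% of expressed genes, and 10 were apart downwards, beside 19.5%. Over the 13 genes with their annotated identifier in both libraries, 6 were higher, 2 apart upwards and 0 downwards. The part of the locus type in these counts was not tested. With a pseudocount of 0.1 FPKM 1 gene, BUB1B, was lower by 1.5-fold. A wider CHR element (TTTGAA or TTTAAA) was found for 89.5% of the 38 genes, against 27.9% of all genes and 19.9% of expressed genes with a window. Leaving out genes with wide intervals was chosen after seeing the data and gave 19 of 40 higher. The other settings, a pseudocount of 5 FPKM, the highest locus per name, no filter, a filter of 5 FPKM and genes on 1 locus of 1 name, moved no count past 1.5 times. No paired analysis was possible because EV and PRSS35 have only 1 library apiece. No library could be left out for the same reason, and the depth of each library is not known from FPKM alone.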
